A study of Homo sapiens with 8 samples.

Results

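Chromosome 13 carried a shift in RNA level in the sgKMT2B knockout of HEK293T cells, and the genes described here are its protein-coding genes. They were chosen as the protein-coding genes on chromosome 13 of GRCh38 with at least 10 counts summed over the 8 libraries. Left out were 5 such genes, the ribosomal protein gene RPL21, COL4A1, COL4A2, CKAP2 and EPSTI1. The rule gave 250 of the 60617 genes in the table of counts. They lay between positions 19633681 and 114337626 on the chromosome. Of these, 233 passed the filter on low counts and were tested, and the other 17 had 10 to 52 counts in all. At the threshold, the lowest members had 10 counts and the highest of the 66 protein-coding genes outside it had 9, with 37 of those 66 at 0. Because the chromosome was picked for its low level in sgKMT2B, every value that sets sgKMT2B against another group is a description here, with no test.

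HEK293T is an established human embryonic kidney line that carries the large T antigen of simian virus 40. The study sequenced poly(A) RNA in 8 libraries, 2 of the unedited line (WT) and 2 of each derivative in which a guide RNA targeted KDM5C, KDM6A or KMT2B, labelled sgKDM5C, sgKDM6A and sgKMT2B. No drug, dose or time is given for any group, and the labels do not say whether a derivative was 1 clone or a pool. Nor is it stated whether replicates are separate cultures, and p-values therefore cover only the spread between these libraries, which may be technical. DNA copy number was not measured here, and fewer cells with a gene's RNA cannot be told apart from less RNA per cell in bulk libraries.

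Chromosome 13 is an acrocentric chromosome, so its genes lie on the long arm. It carries RB1, whose protein holds back E2F transcription factors until cells commit to division, and BRCA2, which acts in the repair of broken DNA by recombination. The large T antigen binds and inactivates the RB1 protein, so HEK293T cells proliferate with RB1 RNA present. Human cell lines of this kind often carry extra or missing chromosome segments, and RNA levels of genes usually follow the number of copies, although single genes are buffered or regulated on their own. KMT2B methylates H3K4 and has a CXXC domain that binds unmethylated CG dinucleotides, which are dense in many promoters.

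The libraries held 15868353 to 27591724 counts. KMT2B had 3531 and 2108 counts in WT and 1568 and 1916 in sgKMT2B, and KDM6A and KDM5C were lowest in the libraries labelled with their own guides. Of kidney lineage markers, PAX2 and SALL1 had RNA in all 8 libraries, while PAX8 and LHX1 had at most 5 counts in any library. The blood and endothelial markers PTPRC, CD3E, PECAM1 and CDH5 had 0 to 5 counts. Of the fibroblast genes, COL1A1 had RNA in all 8 libraries, and LUM had 31 and 53 counts in sgKMT2B against 5 and 4 in WT. Their part in the values below was not tested.

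Promoter sequences of 2 genes that were far lower in sgKMT2B and of 2 that were not are shown first, because KMT2B binds DNA at CG dinucleotides. Each window runs from 250 bases before to 50 bases after the RefSeq start, 5′ to 3′ on the gene's strand, with CG dinucleotides in capitals, from RefSeq on GRCh38.p14. The window of HS6ST3, a heparan sulfate sulfotransferase gene, is chr13:96089857-96090156 on the plus strand. That of SOX21, a transcription factor gene of neural progenitors, is chr13:94712496-94712795 on the minus strand. The window of CDC16, a subunit of the anaphase-promoting complex, is chr13:114234647-114234946 on the plus strand, and that of TFDP1, the DNA-binding partner of E2F factors, is chr13:113584503-113584802 on the plus strand.
HS6ST3: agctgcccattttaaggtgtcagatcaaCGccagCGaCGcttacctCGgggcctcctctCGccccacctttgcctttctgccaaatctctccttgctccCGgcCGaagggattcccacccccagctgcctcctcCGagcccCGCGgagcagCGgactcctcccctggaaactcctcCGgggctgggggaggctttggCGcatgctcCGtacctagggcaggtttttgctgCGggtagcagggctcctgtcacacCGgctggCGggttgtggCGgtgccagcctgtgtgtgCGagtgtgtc
SOX21: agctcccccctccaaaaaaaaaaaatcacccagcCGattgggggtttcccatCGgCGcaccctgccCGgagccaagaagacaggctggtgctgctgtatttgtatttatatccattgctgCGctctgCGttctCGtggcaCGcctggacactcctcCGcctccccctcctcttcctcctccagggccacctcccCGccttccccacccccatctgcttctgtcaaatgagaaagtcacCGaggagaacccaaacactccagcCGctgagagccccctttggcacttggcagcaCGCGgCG
CDC16: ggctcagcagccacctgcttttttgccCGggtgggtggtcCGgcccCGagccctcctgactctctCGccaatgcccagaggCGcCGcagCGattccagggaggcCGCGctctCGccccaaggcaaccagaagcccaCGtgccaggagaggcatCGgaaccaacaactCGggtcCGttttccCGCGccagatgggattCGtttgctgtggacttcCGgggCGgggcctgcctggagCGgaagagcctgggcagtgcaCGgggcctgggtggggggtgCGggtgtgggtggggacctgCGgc
TFDP1: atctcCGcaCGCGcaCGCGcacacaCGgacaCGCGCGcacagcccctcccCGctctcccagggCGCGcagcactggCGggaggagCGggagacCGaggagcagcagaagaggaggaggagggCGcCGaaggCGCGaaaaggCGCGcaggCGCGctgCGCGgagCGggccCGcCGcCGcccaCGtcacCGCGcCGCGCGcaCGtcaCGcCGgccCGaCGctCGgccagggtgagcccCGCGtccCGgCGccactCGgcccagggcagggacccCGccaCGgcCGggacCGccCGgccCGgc

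HS6ST3 and SOX21 held 19 and 15 CG dinucleotides in these windows, and CDC16 and TFDP1 held 23 and 52. The motif searched was CG, which reads the same on both strands. Only the first window listed for each gene was counted, so other starts of a gene, where there are any, are not covered. Of the 250 members, 219 had a window in the RefSeq table. Their median was 27 CG per window, against 14 over all 27305 windows, and 88.6% of members against 56.0% of all windows held at least 10. The members ranged from 0, in the window used for RB1, to 52. The windows of the table include genes that were not tested here, so nothing particular to the members is read from this. Members lower in sgKMT2B than in every other group had a median of 27, members of mixed direction 27.5 and the 4 matched members that were not lower 30. The 20 matched members with a log2 change of -1 or lower against WT had a median of 29.5. The medians of these groups lay between 27 and 30 CG.

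The members' counts summed to 0.925% and 0.896% of all counts in the WT libraries. The share was 0.718% and 0.697% in sgKMT2B, 0.936% and 0.941% in sgKDM5C, and 0.985% and 1.02% in sgKDM6A. Both sgKMT2B libraries were below all 6 others, with no overlap. Over the 233 tested members, the median log2 change of sgKMT2B was -0.41 against WT, -0.41 against sgKDM5C and -0.54 against sgKDM6A, which correspond to changes of -24.7%, -25.0% and -31.4%. These 3 comparisons share the sgKMT2B libraries. The same median over all 17527 genes tested lay within 0.01 of 0 in each of them.

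Against WT, 188 of 233 members had a log2 change below 0, where 49.9% of all genes tested did. By edgeR at an adjusted p under 0.05, 103 members were called lower and 9 higher, beside 14.5% and 13.7% of all genes tested. Against sgKDM5C, 100 were called lower and 4 higher, beside 11.6% and 10.5%, and against sgKDM6A 131 were lower and 4 higher, beside 12.4% and 12.5%. Since the members were selected on this contrast, these counts describe the choice and nothing is read from them. Without sgKMT2B replicate 2 the count lower against sgKDM5C was 65. The count higher was 2 against sgKDM5C without sgKDM5C replicate 1, and 2 against sgKDM6A without sgKDM6A replicate 1 or without sgKMT2B replicate 1.

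In 125 of 233 members both sgKMT2B libraries were below all 6 other libraries, and in 5 they were above them, where 13% and 11.6% of all genes tested were. The spread among members was wide. The lower and upper quartiles of the log2 change against WT were -0.78 and -0.11. In the members of lowest, middle and highest level, the medians were -0.48, -0.38 and -0.43 against WT, -0.68, -0.40 and -0.33 against sgKDM5C, and -0.70, -0.49 and -0.52 against sgKDM6A. In each of these comparisons the members of lowest level had the deepest median.

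**Figure D1:**
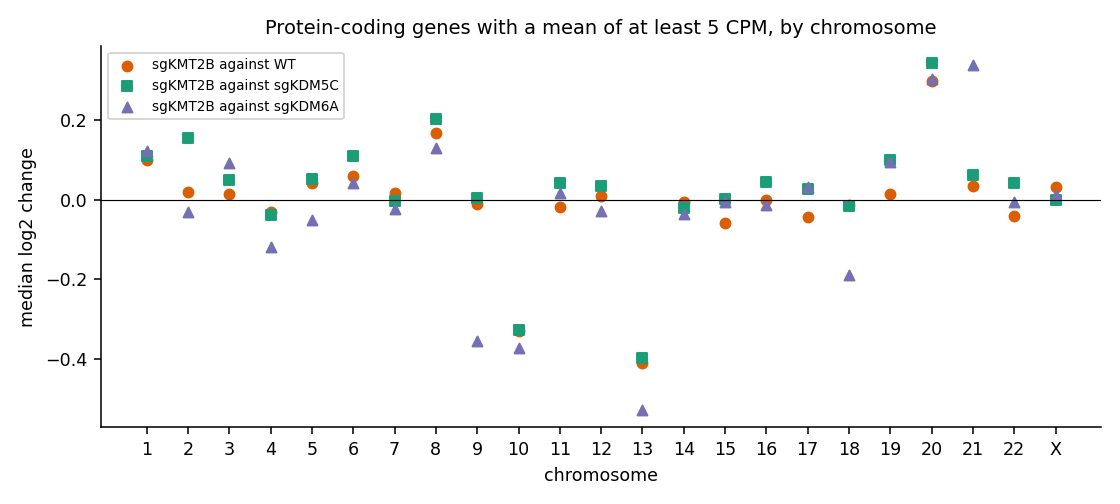
Median log2 change of sgKMT2B against WT, sgKDM5C and sgKDM6A on the y axis for protein-coding genes at a mean of 5 CPM or more (CPM, a gene's counts scaled to its library's TMM-adjusted total), by chromosome on the x axis, each point 1 median. Chromosome 13 had the lowest median of the 23 chromosomes in all 3 comparisons, at -0.41 against WT (189 genes, including the few left out of the members), followed by chromosome 10.

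Of the 23 chromosomes plotted by their medians, chromosome 13 was the lowest in all 3 comparisons. Chromosome 10 was next against WT, with a median of -0.33 over 444 genes. The members were thus not the only chromosome-wide group that was low in sgKMT2B. In the opposite direction, the 203 genes of chromosome 20 beyond 31 Mb had a median of 0.40. These medians were not tested against each other.

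For each library, the level of every member with a mean of at least 5 CPM (185 members) was set against its mean over the 6 WT, sgKDM5C and sgKDM6A libraries. The median log2 ratio was -0.45 and -0.47 in the sgKMT2B libraries. It was -0.02 and -0.09 in WT, -0.05 and -0.07 in sgKDM5C, and 0.08 and 0.08 in sgKDM6A. The replicates of sgKMT2B differed by far less than the distance of either from the other libraries. In each sgKMT2B library 164 of 185 members were below that mean, against 62 to 116 in the others.

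**Figure D2:**
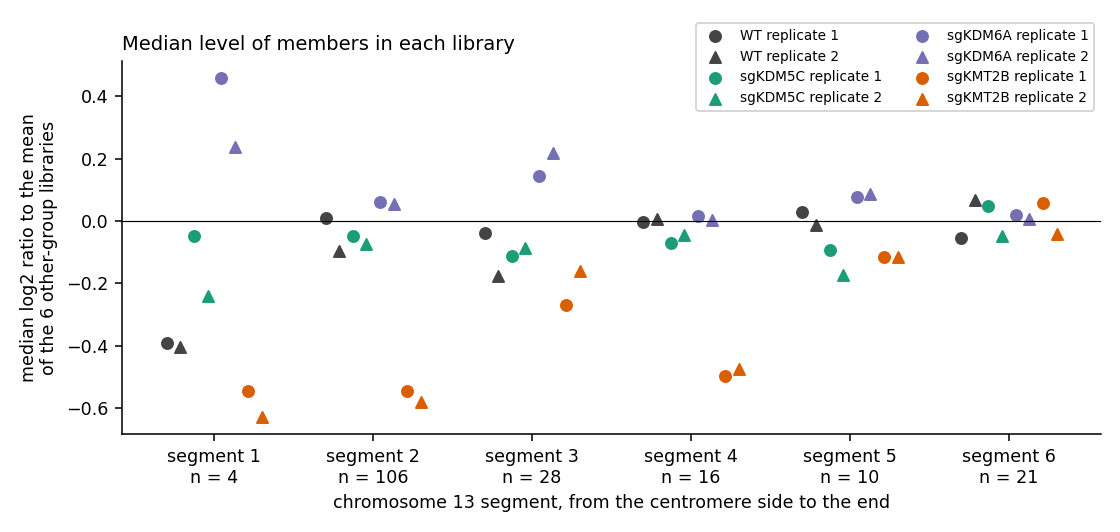
Median log2 ratio of members to their mean over the 6 WT, sgKDM5C and sgKDM6A libraries (y axis), in 6 segments of chromosome 13 in order along the chromosome (x axis, with the number of members), each point 1 library. The segments are 15-20, 20-55, 55-95, 95-100, 100-110 Mb and beyond 110 Mb. The sgKMT2B libraries sit at -0.54 and -0.58 in the second segment and at 0.06 and -0.04 in the last.

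The size of the shift differed along the chromosome. Against WT, among windows of 5 Mb with at least 3 members it was deepest from 20 to 25 Mb, where 17 members had a median of -0.87 and all 17 were lower than each of the 3 other groups. From 20 to 55 Mb the 106 members had medians of -0.54 against WT, -0.51 against sgKDM5C and -0.59 against sgKDM6A, and 80 of them had both sgKMT2B libraries below all others. From 55 to 95 Mb the 28 members had medians of -0.07, -0.15 and -0.46, and 8 were below all others.

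From 95 to 100 Mb the shift was deep again. The 16 members there had medians of -0.58, -0.53 and -0.57, and 13 were below all other libraries. From 100 to 110 Mb the 10 members had medians of -0.19, -0.10 and -0.21. From 110 Mb to the last member, 21 members had medians of 0.01, 0.04 and 0.05, none was below all other libraries and 3 were above them. The borders of these segments were set after the window values were seen, so the segments are a description. The 4 members before 20 Mb had medians of -0.31, -0.40 and -0.98.

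**Figure D3:**
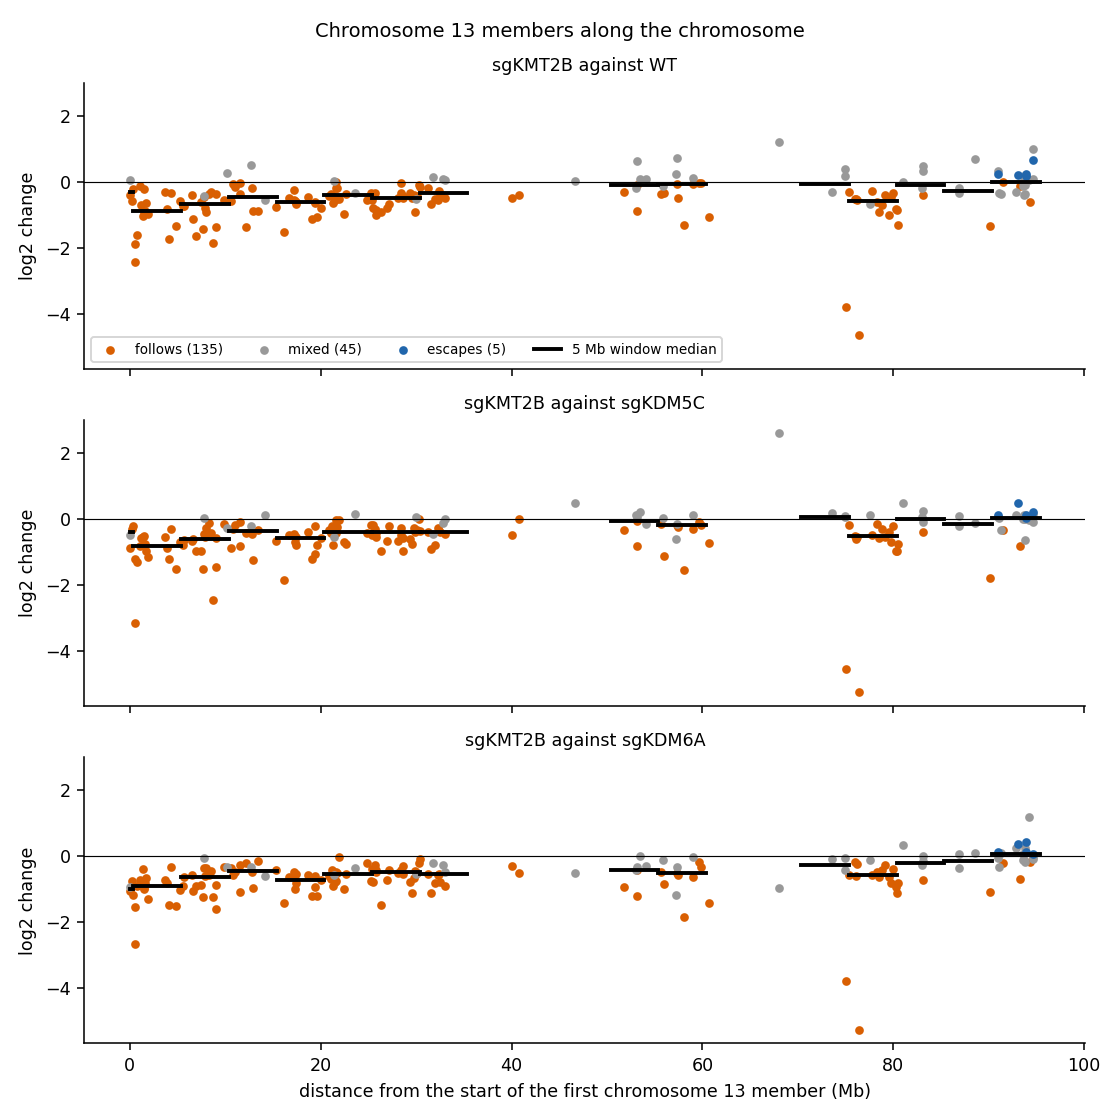
Log2 change of sgKMT2B against WT, sgKDM5C and sgKDM6A (y axis, 1 panel each) for the 185 members with a mean of at least 5 CPM, by distance in Mb from the start of the first member (x axis). Points are genes, coloured by whether they were lower against all 3 groups (follows, 135), not lower against any (escapes, 5) or mixed (45), and bars are medians of 5 Mb windows with at least 3 members. The bars lie below 0 in the first part, near 0 in the panel against WT in the gene-poor middle, below 0 again in 1 window and near 0 at the far end.

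Members were classed by direction alone. Of the 185 with a mean of at least 5 CPM, 135 were lower in sgKMT2B than in each of the 3 other groups and are called following, 5 were at or above each of them and are called escaping, and 45 were mixed. Of all genes at that level, 24.1% were lower against all 3 groups, 26.8% at or above all 3 and 49.1% mixed. The classes depend on sgKDM6A as well as on WT. From 55 to 95 Mb all 28 members were lower than in sgKDM6A, so none there could be escaping. In that segment sgKDM6A itself had a median of 0.34 against WT. Without sgKMT2B replicate 1, and likewise without sgKMT2B replicate 2, 8 members were escaping. No following or mixed gene is called regulated from this, since the classes use no test. An opposite-strand gene overlaps 101 of the 185, and reads of such pairs may not be separated.

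Among members with a mean of at least 5 CPM, the lowest in sgKMT2B against WT was HS6ST3, which adds sulfate to heparan sulfate chains. It had 0.442 and 0.0788 CPM in sgKMT2B, against 5.12 and 8.19 in WT, 8.09 and 11.8 in sgKDM5C, and 9.71 and 10.6 in sgKDM6A. The sgKMT2B libraries were far below all others, with 11 and 2 counts, and the log2 change was -4.64 ± 0.46 (SE). SOX21 had 0.603 and 0.552 CPM in sgKMT2B, against 7.06 and 9.03 in WT, 14.3 and 12.6 in sgKDM5C, and 6.74 and 9.15 in sgKDM6A. Its sgKMT2B libraries were again below every other library and the sgKDM5C libraries the highest, with a log2 change of -3.78 ± 0.28 (SE). SOX21 starts at 94.7 Mb, in a window whose 4 classed members had a median of -0.06, and HS6ST3 at 96.1 Mb.

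GJB2 and GJA3, which encode connexin subunits of gap junctions, lie next to each other near 20 Mb. GJB2 had 1.49 and 0.631 CPM in sgKMT2B, against 5.99 and 5.33 in WT, 9.58 and 9.27 in sgKDM5C, and 6.74 and 6.50 in sgKDM6A. GJA3 had 4.82 and 4.65 CPM in sgKMT2B, against 17.6 and 17 in WT, 10.7 and 11.2 in sgKDM5C, and 13.5 and 13.8 in sgKDM6A. For both, the sgKMT2B libraries did not overlap any other, and the log2 changes against WT were -2.42 ± 0.31 (SE) and -1.87 ± 0.16 (SE). FLT1, a receptor of vascular endothelial growth factors, had 3.86 and 3.43 CPM in sgKMT2B, against 12.3 and 13.9 in WT, 21 and 19.1 in sgKDM5C, and 8.56 and 8.50 in sgKDM6A. It was lowest in sgKMT2B and highest in sgKDM5C, with a log2 change of -1.84 ± 0.18 (SE) against WT.

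Of the other members farthest below the median, MIPEP, a peptidase that processes imported mitochondrial proteins, was at -1.72 ± 0.15 (SE) against WT. WASF3, an actin regulator, was at -1.64 ± 0.16 (SE). CRYL1, a crystallin-like dehydrogenase, was at -1.61 ± 0.16 (SE). DCLK1, a microtubule-binding kinase, was at -1.50 ± 0.22 (SE), and RASL11A, a small GTPase, at -1.44 ± 0.21 (SE). All 5 had both sgKMT2B libraries below the 6 others. Apart from SOX21 and HS6ST3, the 10 genes farthest below the median lay from 20 to 40 Mb.

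SLC15A1, a transporter of small peptides at 98.7 Mb, fell outside the rule for named genes through its low level and was picked after its values were seen. It had 0 and 0 counts in sgKMT2B, against 42 and 26 in WT, 43 and 50 in sgKDM5C, and 19 and 15 in sgKDM6A. Set against a floor of 3 counts in the sgKMT2B group as a whole, it was at least 28.8-fold lower than in WT, at least 28.9-fold lower than in sgKDM5C and at least 10.7-fold lower than in sgKDM6A. No other tested member had 0 counts in both sgKMT2B libraries.

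The genes described next were picked as the most abundant of those close to the members' median against WT. TPT1, which encodes the translationally controlled tumour protein, had 579.6 and 561 CPM in sgKMT2B, against 793 and 657 in WT, 737 and 670.3 in sgKDM5C, and 703 and 663 in sgKDM6A. HSPH1, a cytosolic heat shock chaperone, had 82.7 and 71.6 CPM in sgKMT2B, against 111 and 88.2 in WT, 146 and 124 in sgKDM5C, and 167 and 163 in sgKDM6A. TM9SF2, a membrane protein of endosomes, had 91.7 and 92.5 CPM in sgKMT2B, against 122 and 133 in WT, 156 and 144 in sgKDM5C, and 168 and 155 in sgKDM6A. In all 3 the sgKMT2B libraries were the lowest of the 8, for HSPH1 only just below WT replicate 2.

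TBC1D4, a regulator of glucose transporter traffic, and MYCBP2, a large ubiquitin ligase, were likewise lowest in sgKMT2B, at -0.38 ± 0.09 (SE) and -0.47 ± 0.11 (SE) against WT. GTF3A, a transcription factor of RNA polymerase III, was different. It had 126 and 122 CPM in sgKMT2B, against 142 and 189.8 in WT, 132 and 112 in sgKDM5C, and 130.1 and 125 in sgKDM6A. Its sgKMT2B libraries overlapped both other knockouts. Both WT libraries were above the others, replicate 2 by far and replicate 1 by a small margin over sgKDM5C replicate 1.

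The 5 escaping genes all lay among the 21 classed members beyond 110 Mb, where the medians were 0.01, 0.04 and 0.05. Of all genes at that level 26.8% were classed the same way. There was thus no shift of neighbouring genes for these 5 to escape, and the class gives only their direction. CDC16 had 47 and 44.1 CPM in sgKMT2B, against 30.3 and 27.4 in WT, 42.7 and 35.9 in sgKDM5C, and 43.2 and 43.1 in sgKDM6A. Both sgKMT2B libraries were above all others, by a small margin over sgKDM6A, and the log2 changes were 0.66 ± 0.12 (SE) against WT, 0.21 ± 0.12 (SE) against sgKDM5C and 0.08 ± 0.12 (SE) against sgKDM6A. TFDP1 had 232 and 216 CPM in sgKMT2B, against 187 and 195 in WT, 216 and 193 in sgKDM5C, and 219 and 194 in sgKDM6A. Its sgKMT2B libraries overlapped those of sgKDM6A and lay above the others, by a narrow margin over sgKDM5C replicate 1, with 0.23 ± 0.10 (SE) against WT.

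NAXD, which repairs hydrated NADH, had 41.6 and 38.7 CPM in sgKMT2B, against 33.2 and 35.6 in WT, 37.9 and 35.5 in sgKDM5C, and 37.5 and 36 in sgKDM6A. ATP11A, a flippase that moves phospholipids between the faces of the plasma membrane, had 56.8 and 53.1 CPM in sgKMT2B, against 45.2 and 49.9 in WT, 36 and 43 in sgKDM5C, and 43.6 and 40.6 in sgKDM6A. In both genes the sgKMT2B libraries were the highest of the 8. TMCO3, a predicted membrane exchanger, had 40.3 and 33.8 CPM in sgKMT2B, against 31.1 and 35.2 in WT, 37.6 and 34.2 in sgKDM5C, and 28.3 and 26.4 in sgKDM6A. Its groups overlapped except that sgKDM6A was the lowest. CDC16 and TFDP1 take part in the cell cycle, NAXD in metabolite repair and ATP11A in membrane lipid transport.

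**Figure D4:**
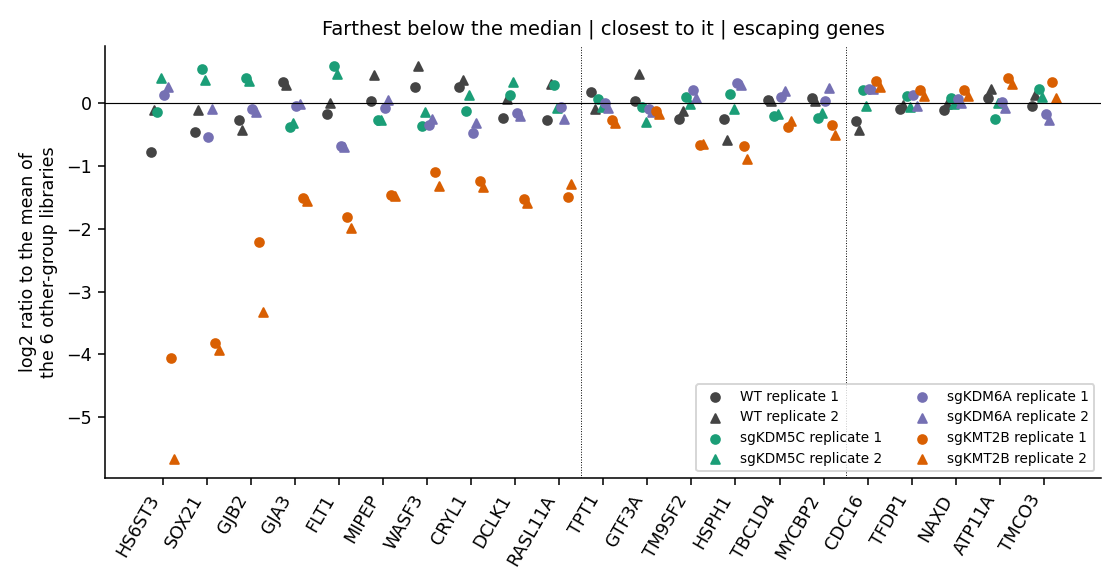
Log2 ratio of each library to the mean of the 6 WT, sgKDM5C and sgKDM6A libraries (y axis) for the 10 following genes farthest below the members' median, the 6 abundant genes close to it and the 5 escaping genes (x axis), with 1 point per library. The sgKMT2B points are the lowest for all 10 genes on the left, and for CDC16, NAXD and ATP11A they are the highest.

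Near the end of the chromosome, low and unlowered genes lay close together. From 100 to 110 Mb, 7 of the 10 members were mixed. Against WT, ABHD13, at 108.2 Mb, was at 0.69 ± 0.17 (SE) and BIVM, picked after its value was seen, at 0.48 ± 0.19 (SE). From 105 to 110 Mb, where ABHD13 lies, the highest log2 changes of sgKMT2B were 0.09 against sgKDM5C and 0.10 against sgKDM6A. IRS2, the adaptor that carries insulin and IGF signals, starts at 109.8 Mb and had 3.58 and 3.98 CPM in sgKMT2B, against 9.83 and 9.29 in WT, 10.6 and 15.2 in sgKDM5C, and 7.93 and 8.11 in sgKDM6A. Both sgKMT2B libraries were below all others, with a log2 change of -1.34 ± 0.21 (SE) against WT. COL4A1 and COL4A2, basement membrane collagens that the choice of members leaves out, start at 110.1 and 110.3 Mb and were at -1.12 ± 0.17 (SE) and -0.91 ± 0.12 (SE). From NAXD at 110.6 Mb onwards, RASA3, a GTPase-activating protein for RAS, was the lowest classed member at -0.60 ± 0.17 (SE), and its sgKMT2B level overlapped both other knockouts.

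CHAMP1, a chromosome alignment protein at 114.3 Mb, had 41.9 and 33.8 CPM in sgKMT2B, against 19.3 and 18.7 in WT, 38.4 and 29.2 in sgKDM5C, and 41.7 and 35.4 in sgKDM6A. WT alone was low, and the 3 knockouts overlapped each other. LAMP1, the main lysosomal membrane glycoprotein, and CUL4A, a scaffold of ubiquitin ligases, were at 0.16 ± 0.09 (SE) and 0.01 ± 0.12 (SE) against WT.

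Grouped by role, genes of DNA repair and cohesion were mixed. Of 7 tested, 3 had both sgKMT2B libraries below all 6 others, where 53.6% of tested members and 13% of all genes did, and the median against WT was -0.19. PDS5B, a regulator of cohesin, had 26.2 and 27.2 CPM in sgKMT2B, against 55.9 and 42.5 in WT, 62.9 and 62.7 in sgKDM5C, and 52.5 and 51.3 in sgKDM6A, and its sgKMT2B libraries were the lowest. BRCA2 had 14.6 and 15.3 CPM in sgKMT2B, against 11.1 and 9.88 in WT, 14.8 and 19.7 in sgKDM5C, and 16.1 and 21.1 in sgKDM6A, so that WT and not sgKMT2B was the low group. RFC3, a subunit of the sliding clamp loader, had 84.5 and 78.8 CPM in sgKMT2B, against 130.0 and 108 in WT, 75.8 and 72.7 in sgKDM5C, and 124 and 121 in sgKDM6A, with sgKDM5C and sgKMT2B both low. RNASEH2B, of the enzyme that removes ribonucleotides from DNA, was at -0.19 ± 0.13 (SE) against WT and below all other libraries.

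The counts below all other libraries in the lists that follow stand beside those same shares. In the cell cycle list of 15 tested genes, 7 were below all other libraries and the median against WT was -0.44. RB1 had 44.5 and 44.2 CPM in sgKMT2B, against 67.2 and 52.6 in WT, 82.9 and 89.2 in sgKDM5C, and 65.4 and 63.8 in sgKDM6A. Its sgKMT2B libraries were the lowest and the sgKDM5C libraries the highest, and sgKMT2B was at -0.44 ± 0.12 (SE) against WT and -0.96 ± 0.12 (SE) against sgKDM5C. CDK8, the kinase of the Mediator complex, had 12.7 and 14 CPM in sgKMT2B, against 30.4 and 28.1 in WT, 18.7 and 22.1 in sgKDM5C, and 29.3 and 26.3 in sgKDM6A. LATS2, a kinase of the Hippo pathway, had 10.4 and 11.5 CPM in sgKMT2B, against 20.4 and 24.5 in WT, 16 and 16.3 in sgKDM5C, and 12.5 and 15.9 in sgKDM6A. Both were lowest in sgKMT2B, while CUL4A and TFDP1, at the far end of the chromosome, were not.

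Of 14 chromatin and general transcription genes, 13 were below 0 against WT, where 80.7% of tested members and 49.9% of all genes were. By edgeR 6 of the 14 were called lower, their median was -0.41, and 9 were below all other libraries. HMGB1, an abundant DNA-bending protein, had 308 and 293 CPM in sgKMT2B, against 372 and 256 in WT, 379 and 355 in sgKDM5C, and 419.6 and 461 in sgKDM6A. Its WT libraries were far apart, so that WT and sgKMT2B overlapped. POLR1D, a subunit shared by RNA polymerases I and III, had 101 and 109.7 CPM in sgKMT2B, against 189.7 and 206 in WT, 122 and 133 in sgKDM5C, and 129 and 141 in sgKDM6A, and was lower in all 3 knockouts than in WT. MPHOSPH8 and SETDB2, which take part in silencing at heterochromatin, were both lower than in each other group, at -0.41 ± 0.17 (SE) and -0.41 ± 0.20 (SE) against WT.

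Of 14 sequence-specific transcription factors, 9 were below all other libraries and the median against WT was -0.33. FOXO1, a factor that insulin signalling keeps out of the nucleus, had 18.1 and 18.4 CPM in sgKMT2B, against 23.6 and 25.9 in WT, 22.3 and 24.1 in sgKDM5C, and 26 and 28.8 in sgKDM6A, lowest in sgKMT2B. ZIC2 and ZIC5, neighbouring zinc finger genes of neural development, were at -0.84 ± 0.10 (SE) and -0.83 ± 0.13 (SE). ELF1, an ETS factor, was at -0.63 ± 0.15 (SE). KLF5 was at 0.09 ± 0.17 (SE), with 1 sgKMT2B library within the range of the other 6 and 1 above it.

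RNA processing genes had a median of -0.08 over 9 tested, with 3 below all others. DIS3, the catalytic exosome subunit, had 106 and 106 CPM in sgKMT2B, against 130.5 and 93.7 in WT, 109 and 114 in sgKDM5C, and 141 and 139.7 in sgKDM6A, so that its WT libraries spanned the sgKMT2B values. ZC3H13, of the complex that methylates RNA, was the lowest of this list at -0.90 ± 0.11 (SE). Genes of ubiquitin, proteasome and chaperones had a median of -0.36 over 21, with 11 below all others, among them HSPH1 and MYCBP2.

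Of 16 tested mitochondrial and metabolic genes, 10 were below all others and the median was -0.43. SLC25A15, the ornithine carrier of the urea cycle, had 58.9 and 54 CPM in sgKMT2B, against 67.5 and 81.5 in WT, 65.1 and 64.1 in sgKDM5C, and 75 and 74.3 in sgKDM6A. SUCLA2, a subunit of succinyl-CoA ligase, had 32.7 and 33.9 CPM in sgKMT2B, against 56.4 and 37 in WT, 50.9 and 55.5 in sgKDM5C, and 45.2 and 50.5 in sgKDM6A. In both the sgKMT2B libraries were the lowest. CARS2, the mitochondrial cysteine-tRNA ligase next to NAXD, had 52.3 and 52.3 CPM in sgKMT2B, against 37.5 and 45.6 in WT, 52.1 and 48.5 in sgKDM5C, and 55.4 and 53.7 in sgKDM6A, with only WT low.

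Traffic and cytoskeleton genes had a median of -0.50 over 18 tested, with 12 below all others. ITM2B, an integral membrane protein whose mutations cause dementias, had 112 and 102 CPM in sgKMT2B, against 137 and 162 in WT, 171 and 148 in sgKDM5C, and 134 and 129 in sgKDM6A. FARP1, a guanine nucleotide exchange factor, was at -0.91 ± 0.11 (SE). Transporters and channels had a median of -1.21 over 10, with 8 below all others, and that median was the same with SLC15A1 at its bound. SLC7A1, a carrier of cationic amino acids, was an abundant member of that list at -0.55 ± 0.11 (SE), and its sgKMT2B libraries overlapped those of sgKDM5C.

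Receptors, ligands and adhesion genes had 17 of 24 members tested, a median of -0.31 against WT and 6 below all others. FGF9, a secreted growth factor of kidney and gonad development, had 0.281 and 0.158 CPM in sgKMT2B, against 2.44 and 2.08 in WT, 2.29 and 3.29 in sgKDM5C, and 5.27 and 5.72 in sgKDM6A. SPRY2, an inhibitor of receptor kinase signals, had 8.40 and 6.54 CPM in sgKMT2B, against 13.4 and 17.9 in WT, 12.8 and 12 in sgKDM5C, and 21.2 and 18.8 in sgKDM6A. Both were lowest in sgKMT2B. SLITRK5, a neuronal adhesion receptor, had 32.2 and 37.5 CPM in sgKMT2B, against 14.3 and 16 in WT, 5.10 and 6.43 in sgKDM5C, and 66.1 and 70.5 in sgKDM6A. Its order was sgKDM5C, WT, sgKMT2B and sgKDM6A, with no overlap between any 2 groups.

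Because RB1 was among the lower members, 41 tested genes of its pathway on other chromosomes were set beside it. This list is no member list, so its sgKMT2B values were tested. By edgeR, 6 of the 41 rose and 9 fell in sgKMT2B against WT, beside 13.7% and 14.5% of all genes tested, and the median log2 change was -0.08. Without sgKMT2B replicate 1, 3 rose and 4 fell. Of the replication genes that E2F factors control, CDT1, RRM1 and RRM2 fell.

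Of the cyclins that drive RB1 phosphorylation, CCND2 fell by 1.22 ± 0.14 (SE) on the log2 scale (edgeR, adjusted p = 5.4e-05) and CCND1 by 0.62 ± 0.15 (edgeR, adjusted p = 0.00792), while CCND3, CCNE1 and CCNE2 did not pass the test. Of their kinases, CDK6 fell by 0.51 ± 0.15 (edgeR, adjusted p = 0.0211), CDK4 rose by 0.31 ± 0.10 (edgeR, adjusted p = 0.03) and CDK2 did not pass. CDKN1A, an inhibitor of cyclin-dependent kinases, rose by 0.86 ± 0.12 (edgeR, adjusted p = 0.000217). E2F2 fell by 0.96 ± 0.11 (edgeR, adjusted p = 3.4e-05) and E2F7, a repressor of the family, rose by 0.81 ± 0.12 (edgeR, adjusted p = 0.000235). RBL1, a close relative of RB1, rose by 0.70 ± 0.14 (edgeR, adjusted p = 0.00223). RBL1 lies on chromosome 20, whose median was 0.30 over 301 genes in this comparison.

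Chromosome 13 genes that were left out went different ways. RPL21 was at -0.52 ± 0.10 (SE) against WT, CKAP2, a spindle protein, at -0.04 ± 0.10 and EPSTI1, an interferon-responsive gene of low level, at 0.56 ± 0.46. The 78 tested genes of other biotypes on the chromosome had medians of -0.47, -0.41 and -0.44 against WT, sgKDM5C and sgKDM6A, and 54 were below 0 against WT. The long noncoding DLEU1 and DLEU2, in the region often deleted in chronic lymphocytic leukaemia, overlap each other's locus. DLEU1 was at -0.53 ± 0.19 and DLEU2 at 1.04 ± 0.26.

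The members were not selected on the comparisons among WT, sgKDM5C and sgKDM6A, which were therefore tested. In sgKDM5C against WT the median over 233 members was 0.03, and 23 rose and 32 fell by edgeR, or 9.87% and 13.7%, beside 11.1% and 11.5% of all genes tested. In sgKDM6A against WT the median was 0.12, and 37 rose and 26 fell, or 15.9% and 11.2%, beside 12.6% and 14.6%. These 2 comparisons share the WT libraries. In sgKDM5C against sgKDM6A the median was -0.12, and 14 were higher and 27 lower, or 6.01% and 11.6%, beside 10.9% and 8.86%. The shares of members called lay nearest to those of all genes in sgKDM5C against WT. Below 0 were 36.5% of members in sgKDM6A against WT and 66.5% in sgKDM5C against sgKDM6A, where 49.6% and 49.1% of all genes were. These differences in share were not tested.

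These counts moved with single libraries. Without WT replicate 2, 11 rose and 19 fell in sgKDM5C, and 8 fell in sgKDM6A. Without sgKDM5C replicate 1, 11 rose and 10 fell in sgKDM5C, and without sgKDM5C replicate 2, 13 rose. Without sgKDM6A replicate 1, 20 rose and 7 fell in sgKDM6A, and without sgKDM6A replicate 2, 14 fell. Between sgKDM5C and sgKDM6A, leaving out any of the 4 libraries gave 6 to 9 higher and 10 to 14 lower. The median of sgKDM5C against WT was -0.02 without WT replicate 2.

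**Figure D5:**
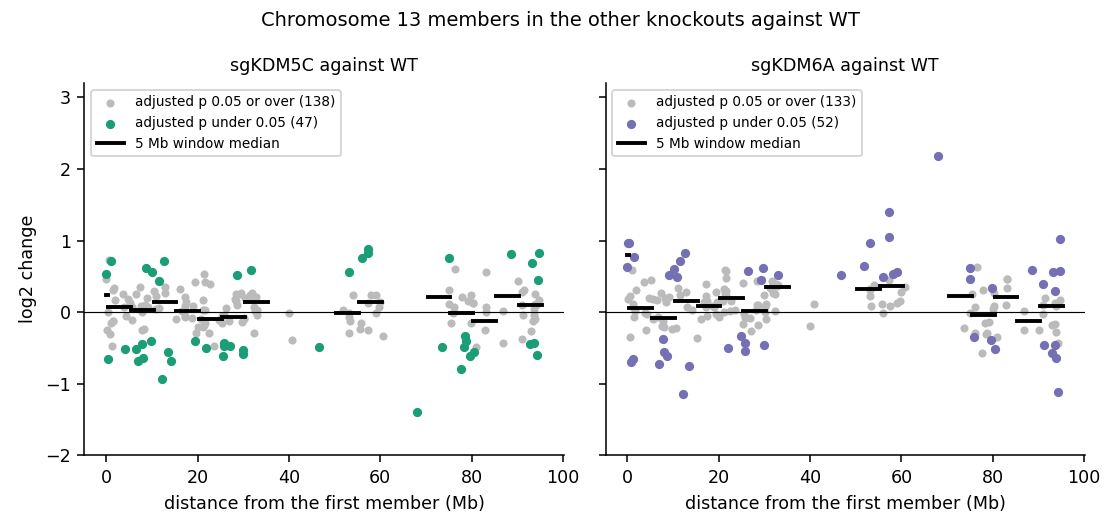
Log2 change of sgKDM5C (left) and sgKDM6A (right) against WT on the y axis for the 185 members with a mean of at least 5 CPM, by distance in Mb from the first member on the x axis. Coloured points passed an adjusted p of 0.05, grey points did not, and bars are medians of 5 Mb windows with at least 3 members. Over the 106 members from 20 to 55 Mb, the medians were 0.03 and 0.11.

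Along the chromosome, the segment medians of sgKDM5C against WT lay between -0.01 and 0.09 from 20 Mb onwards and at 0.24 over the 4 members before it. In sgKDM6A against WT, 11 of the 28 members from 55 to 95 Mb rose and 0 fell, beside 12.6% and 14.6% of all genes tested, with a median of 0.34. At an unadjusted p under 0.05, and also by DESeq2, 0 fell. In the same comparison 3 of the 4 before 20 Mb rose. In the same 28 members, 5 rose and 3 fell in sgKDM5C against WT, beside 11.1% and 11.5%. The difference between the knockouts in this segment was tested gene by gene, and 9 of the 28 were lower in sgKDM5C than in sgKDM6A and 1 higher, beside 8.86% and 10.9%.

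Among members with a mean of at least 5 CPM, SLITRK5, whose levels are given above, had both the largest fall in sgKDM5C and the largest rise in sgKDM6A. It fell by 1.39 ± 0.16 (SE) on the log2 scale in sgKDM5C (edgeR, adjusted p = 0.000118) and rose by 2.17 ± 0.15 (SE, edgeR adjusted p = 5.11e-07) in sgKDM6A. PCDH9, a protocadherin, had 21.5 and 25.7 CPM in sgKMT2B, against 22 and 24.8 in WT, 14.6 and 18.8 in sgKDM5C, and 34.5 and 32.7 in sgKDM6A. The difference of sgKDM5C from sgKDM6A was -1.01 ± 0.15 (SE, edgeR adjusted p = 0.000508). PCDH17, a protocadherin under 5 CPM picked after its values were seen, had 116 and 131 counts in sgKDM6A, 33 and 52 in sgKMT2B, 3 and 3 in WT, and 0 and 0 in sgKDM5C. It was at least 83.4-fold lower in sgKDM5C than in sgKDM6A, with the floor of 3 counts for the sgKDM5C group as a whole. SLITRK5 and PCDH17 thus had the same order of groups.

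KCTD12, an auxiliary subunit of GABA-B receptors, had 35.6 and 37.4 CPM in sgKMT2B, against 37.7 and 24.2 in WT, 56.2 and 54.2 in sgKDM5C, and 76.6 and 88 in sgKDM6A. It rose by 0.82 ± 0.16 (SE, edgeR adjusted p = 0.00353) in sgKDM5C and by 1.40 ± 0.16 (SE, edgeR adjusted p = 6.28e-05) in sgKDM6A. Its WT and sgKMT2B libraries overlapped, and those of sgKDM6A were the highest.

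IFT88, which cilia need for assembly, rose in sgKDM5C by 1.22 ± 0.27 (SE, edgeR adjusted p = 0.00678) and in sgKDM6A by 1.14 ± 0.27 (SE, edgeR adjusted p = 0.00786). Without WT replicate 2 these were adjusted p = 0.054 and 0.0629 (edgeR). CHAMP1 rose by 0.83 ± 0.16 (SE, edgeR adjusted p = 0.00307) in sgKDM5C, and ABHD13, a hydrolase gene, by 0.81 ± 0.17 (SE, edgeR adjusted p = 0.00464). FGF9 rose by 1.27 ± 0.30 (SE, edgeR adjusted p = 0.00658) in sgKDM6A.

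Of the members that fell in sgKDM5C, RFC3 was at -0.68 ± 0.11 (SE, edgeR adjusted p = 0.000801). RUBCNL, a regulator of autophagy, had 0.884 and 1.02 CPM in sgKMT2B, against 7.15 and 7.60 in WT, 2.37 and 3.82 in sgKDM5C, and 3.92 and 6.72 in sgKDM6A and was at -1.25 ± 0.30 (SE, edgeR adjusted p = 0.00993). Without sgKDM5C replicate 1 it was at -0.95 (edgeR, adjusted p = 0.0946). FRY, a large scaffold protein of mitosis and cell shape, had 6.15 and 5.83 CPM in sgKMT2B, against 11.9 and 19 in WT, 6.48 and 9.50 in sgKDM5C, and 5.27 and 8.54 in sgKDM6A. It was at -0.94 ± 0.27 (SE, edgeR adjusted p = 0.0239) in sgKDM5C and at -1.14 ± 0.27 (SE, edgeR adjusted p = 0.00765) in sgKDM6A.

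Both calls of FRY rested on single libraries. Without WT replicate 2 its log2 changes were -0.58 and -0.77 (edgeR, adjusted p = 0.207 and 0.0893). Without sgKDM5C replicate 1 the former was -0.69 (edgeR, adjusted p = 0.174), and without sgKDM6A replicate 1 the latter was -0.84 (edgeR, adjusted p = 0.0768). MBNL2, a splicing regulator, was at -0.79 ± 0.21 (SE, edgeR adjusted p = 0.0176) in sgKDM5C. Its adjusted p was 0.0518 without WT replicate 1, 0.0543 without WT replicate 2 and 0.145 without sgKDM5C replicate 1 (edgeR).

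In sgKDM6A, GAS6, a ligand of TAM receptor kinases, had 34.1 and 36 CPM in sgKMT2B, against 29.6 and 37.7 in WT, 37.3 and 34.9 in sgKDM5C, and 15.9 and 15.1 in sgKDM6A. It fell, at -1.11 ± 0.14 (SE, edgeR adjusted p = 0.000115), with both sgKDM6A libraries below the 6 others. WASF3 was at -0.73 ± 0.15 (SE, edgeR adjusted p = 0.00386) and CRYL1 at -0.70 ± 0.15 (SE, edgeR adjusted p = 0.00423). STARD13, a GTPase-activating protein, was at -0.75 ± 0.18 (SE, edgeR adjusted p = 0.00826). Leaving out WT replicate 2 gave an edgeR adjusted p of 0.0605, and leaving out sgKDM6A replicate 1 gave 0.071.

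Set against sgKDM6A, sgKDM5C was higher for FLT1 by 1.23 ± 0.16 (SE, edgeR adjusted p = 0.000142) and for GAS6 by 1.22 ± 0.14 (SE, edgeR adjusted p = 5.16e-05). ADPRHL1, a gene of heart chamber growth, was higher by 0.89 ± 0.17 (SE, edgeR adjusted p = 0.00265). ZMYM2, a zinc finger protein of chromatin repressor complexes, had 31.7 and 35.2 CPM in sgKMT2B, against 42 and 34.9 in WT, 36.3 and 40.9 in sgKDM5C, and 74.2 and 75.9 in sgKDM6A. It stood high in sgKDM6A alone, and sgKDM5C against sgKDM6A was at -0.96 ± 0.12 (SE, edgeR adjusted p = 0.000127).

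Of the remaining named genes of that comparison, SOX21 was at 0.76 ± 0.21 (SE, edgeR adjusted p = 0.019) and IRS2 at 0.69 ± 0.20 (SE, edgeR adjusted p = 0.0251). MTRF1, a mitochondrial release factor, was at -0.73 ± 0.22 (SE, edgeR adjusted p = 0.0318), and FGF9 at -0.98 ± 0.28 (SE, edgeR adjusted p = 0.0272). These 4 calls were lost when single libraries were left out. Without sgKDM5C replicate 1 the edgeR adjusted p was 0.114 for SOX21, 0.188 for FGF9 and 0.0915 for MTRF1. Without sgKDM5C replicate 2 it was 0.304 for IRS2 and 0.141 for MTRF1. Without sgKDM6A replicate 1 it was 0.173 for SOX21, 0.117 for IRS2, 0.0843 for FGF9 and 0.0752 for MTRF1 (edgeR), and without sgKDM6A replicate 2 0.0958 for IRS2, 0.122 for FGF9 and 0.14 for MTRF1 (edgeR).

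The role lists were also counted in the 2 demethylase knockouts, by edgeR over all genes. Of all genes tested, 11.1% rose and 11.5% fell in sgKDM5C, and 12.6% rose and 14.6% fell in sgKDM6A. No list was tested against the rest. Of 15 cell cycle genes, 4 rose and 1 fell in sgKDM5C, and 4 rose and 1 fell in sgKDM6A, with BORA, CDC16 and CHAMP1 rising in both. RB1 rose by 0.52 ± 0.12 (SE, edgeR adjusted p = 0.00791) in sgKDM5C and was at 0.10 ± 0.12 (SE, edgeR adjusted p = 0.551) in sgKDM6A. Of 7 DNA repair genes, BRCA2 rose by 0.71 ± 0.19 (SE, edgeR adjusted p = 0.015) in sgKDM5C and by 0.82 ± 0.19 (SE, edgeR adjusted p = 0.00554) in sgKDM6A, and RFC3 fell in sgKDM5C.

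Of 14 chromatin and general transcription genes, 0 rose and 4 fell in sgKDM5C, beside 11.1% and 11.5% of all genes, and the 4 were CDK8, GTF3A, POLR1D and GTF2F2. At an unadjusted p under 0.05 the count that rose was 1, and by DESeq2 1. In sgKDM6A, MPHOSPH8, ZMYM2 and HMGB1 rose and GTF3A and POLR1D fell. POLR1D was at -0.64 ± 0.10 (SE, edgeR adjusted p = 0.000754) in sgKDM5C and at -0.55 ± 0.10 (SE, edgeR adjusted p = 0.00121) in sgKDM6A. Of 21 genes of ubiquitin, proteasome and chaperones, 5 rose and 2 fell in sgKDM5C and 6 rose and 3 fell in sgKDM6A.

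Of 17 receptors, ligands and adhesion genes, 2 rose and 4 fell in sgKDM5C, beside 11.1% and 11.5% of all genes, and 7 rose and 3 fell in sgKDM6A, beside 12.6% and 14.6%. Of 16 mitochondrial and metabolic genes, SLC25A30, a carrier of the inner membrane, fell in both knockouts, at -0.47 ± 0.13 (SE, edgeR adjusted p = 0.0181) in sgKDM5C and -0.54 ± 0.13 (SE, edgeR adjusted p = 0.00728) in sgKDM6A. Of 18 traffic and cytoskeleton genes, 1 rose and 3 fell in sgKDM5C and 2 rose and 3 fell in sgKDM6A. Of 14 sequence-specific factors, SOX21 rose in sgKDM5C, DACH1 and POU4F1 rose in sgKDM6A, and TSC22D1 fell in sgKDM6A.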

How the data were processed

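Poly(A) RNA was sequenced as read pairs on an Illumina instrument, per the labels' protocols. The authors deposited raw read counts per Ensembl gene, with STAR and HTSeq 0.11.2 named as tools and GRCh38 as build, per the submitters' processing notes. For the STAR version, the annotation and the strand setting, nothing is given in the sources used here, so overlapping and antisense genes cannot be told apart.

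Positions and biotypes came from GENCODE v29, which held 58542 of the 60617 identifiers, and promoter windows from RefSeq on GRCh38.p14. Counts of all 8 libraries were fitted in edgeR 4.0.16 (quasi-likelihood, TMM scaling, filterByExpr by group, 1 coefficient per group), which tested 17527 genes. P-values were adjusted by Benjamini-Hochberg within each comparison over all genes tested, with calls at an adjusted p under 0.05. Levels are CPM on TMM-scaled totals, and an SE is the log2 change divided by the square root of F. The floor of 3 counts over a group covers counting error only. Scripts were tested on simulated data.

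The members and lists were chosen with earlier results of these data known. Named were escaping genes, the 10 following genes farthest below and 6 abundant genes close to the median, the 5 largest called changes each way where the higher group had at least 5 CPM and groups did not overlap, and the 3 most abundant members of each role list, with RB1, BRCA2, FOXO1, IRS2 and TFDP1. Other genes named in the role lists were chosen after their values were seen. A gene that this rule named is not reported here. Deviations of same-numbered libraries correlated weakly (r from -0.018 to 0.182, and from 0.083 to 0.182 between knockouts). The labels do not tie replicate numbers to a shared culture, so no pairing was used. Alternatives were other scalings, DESeq2 1.42.0, other filters, fits of 2 groups, a replicate block and leaving out each library.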

Additional observations from a re-analysis of the deposited data

How the results depend on the processing

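Under relative log expression factors, TMM factors without chromosome 13 genes, DESeq2, no filter on low counts and fits of only 2 groups, every median and count of members over the 6 comparisons, the classes and the RB pathway counts stayed within the spread between replicates or within 1.5 times their value. Upper-quartile factors moved the member median to -0.46 for sgKMT2B against sgKDM5C, to 0.063 for sgKDM5C against WT and to -0.092 for sgKDM5C against sgKDM6A. A filter at a mean of 5 CPM left 2 members higher in sgKMT2B than in sgKDM5C. In the main fit there were 4, of which 3 had a mean of at least 5 CPM, and the cause of the move was not tested. With the replicate block, which the labels do not tie to a shared culture, sgKMT2B against WT had a median of -0.41 with 112 members lower and 11 higher, and 134 members were following. Classing at a mean of 1 CPM, chosen after seeing the data, changed no class count by over 1.5 times.

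With each library left out in turn, medians ranged from -0.45 to -0.39 for sgKMT2B against WT, -0.43 to -0.39 against sgKDM5C, -0.55 to -0.52 against sgKDM6A, -0.022 to 0.080 for sgKDM5C against WT, 0.10 to 0.18 for sgKDM6A against WT and -0.11 to -0.10 between these. Members called lower and higher ranged over 76 to 102 and 7 to 12 for sgKMT2B against WT, 65 to 79 and 2 to 4 against sgKDM5C, 91 to 105 and 2 to 3 against sgKDM6A, 10 to 28 and 11 to 27 for sgKDM5C against WT, 7 to 25 and 20 to 44 for sgKDM6A against WT, and 10 to 14 and 6 to 9 between these. Following members ranged from 124 to 137, escaping from 5 to 8 and mixed from 40 to 56. RB pathway genes that rose ranged from 3 to 7 and that fell from 4 to 10. A left-out library leaves 1 sample in its group, which is assumed to vary like the others, and the cause of these moves was not tested.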
